A study of Mus musculus with 8 samples.

Results

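The interleukin-6 family, interleukin-10 and STAT3 axis was followed through 10 genes, given by name and matched to the Ensembl gene IDs of the table. All 10 were found among its 35539 IDs. They comprise 5 cytokines (Il6, Lif, Osm, Il11 and Il10), 3 receptor chains (Il6ra, Osmr and Il6st), the transcription factor Stat3 and its feedback inhibitor Socs3. Their RNA was measured in 8 bulk mouse mammary tumors of 2 genotypes. Tumors 1 to 4 (control) came from Brca1f/f Trp53+/- mice. Tumors 5 to 8 (HMMR-Tg) came from HMMR Tg/Tg Brca1f/f Trp53+/- mice, which carry the same Brca1 and Trp53 alleles and, on both copies of Rosa26, a human HMMR coding sequence behind a floxed stop cassette. The HMMR product is a microtubule-associated spindle protein and binds hyaluronan, and the comparison asks whether RNA of the pathway differs in tumors that form when it is overexpressed. In all of these mice the β-lactoglobulin promoter-driven Blg-Cre transgene, active in mammary epithelium after pregnancy, deletes floxed exons of Brca1, and 1 germline copy of Trp53 is missing. The animals were parous, of mixed background and matched for age according to the labels. The model therefore induces HMMR only in cells that recombine, whereas the RNA came from whole tumors with their stroma and immune cells. The labels do not tie tumors to mice, so p-values measure the spread between these tumors.

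In this pathway a cytokine binds a specific receptor chain, which recruits the shared chain gp130, the product of Il6st. Receptor-bound JAK kinases then phosphorylate STAT3, which enters the nucleus and activates genes that include its own inhibitor Socs3. Interleukin-10 uses a separate receptor pair but also acts through STAT3. In the mammary gland, LIF and oncostatin M signaling through STAT3 drives the regression of the gland after weaning.

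Values are TPM, the share of transcripts taken by a gene after correction for its length, so that levels can be set side by side between genes as well as tumors. TPM keeps no sequencing depth, and the depth behind each value is unknown. In each tumor 21522 to 22336 IDs were above 0, and Spearman correlations between tumors over the tested genes lay between 0.866 and 0.955. Endogenous Hmmr lay between 9.39 and 15.2 TPM across the control tumors and between 13.0 and 20.2 TPM across the HMMR-Tg tumors. The human transgene was not analysed here. Mammary epithelial markers summed to 2453 to 5942 TPM across the control tumors and 2088 to 5696 TPM across the HMMR-Tg tumors, and none was at 0 in all tumors. In bulk tissue, fewer cells of a type and less RNA per cell cannot be told apart. Differences between genotypes are HMMR-Tg minus control on log2(TPM + 1), which understates the change of genes with low values.

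The proximal promoters of Il6 and Socs3 are shown because their RNA is read below as the cytokine end and the feedback end of the pathway. They are the 250 bases before the RefSeq gene start on GRCm38.p6, 5′ to 3′ on the gene strand, and 8 of the 10 members had such an entry. The Il6 promoter is at chr5:30012864-30013113, plus strand, and the Socs3 promoter at chr11:117969367-117969616, minus strand. Capitals mark matches, on either strand, to an NF-κB motif (GGGA, any base, then TTTCC), a C/EBP motif (TTNNGNAAT), an AP-1 motif (TGANTCA), a cyclic AMP response element (TGACGT) and a STAT motif (TTCNNNGAA).
Il6: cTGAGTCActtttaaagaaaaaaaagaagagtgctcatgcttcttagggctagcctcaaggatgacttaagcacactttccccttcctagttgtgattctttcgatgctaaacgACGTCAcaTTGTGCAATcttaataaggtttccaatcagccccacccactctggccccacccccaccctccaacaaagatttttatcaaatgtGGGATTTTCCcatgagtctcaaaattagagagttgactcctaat
Socs3: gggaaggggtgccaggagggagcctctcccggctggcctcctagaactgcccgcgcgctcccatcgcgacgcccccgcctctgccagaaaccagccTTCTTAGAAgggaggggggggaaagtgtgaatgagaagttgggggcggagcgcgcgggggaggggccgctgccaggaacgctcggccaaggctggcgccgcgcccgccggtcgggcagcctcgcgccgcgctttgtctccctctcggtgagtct
The Il6 window held 4 of the motifs without overlap, with the NF-κB match from position -44 to -35 relative to the start, the C/EBP match from -128 to -120, the response element from -136 to -131 on the reverse strand and the AP-1 match from -249 to -243. Among 32851 promoter windows of this length, the NF-κB letters occurred in 0.356%, the C/EBP letters in 10.2%, the AP-1 letters in 6.75% and the response element in 6.47%. The Socs3 window held a single STAT match from -154 to -146, letters found in 7.02% of the windows. Lif and the second of the Il11 windows held 1 AP-1 match each. No other match was found in the windows of the members. The motifs and their letters were chosen by hand, so the number of matches in a window and the shares depend on that choice and were not tested. A match describes letters and is neither a bound site nor a cause.

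Il6, which encodes the founding cytokine of the family, lies at chromosome 5, 30339701 to 30346508 (mm9, as for all gene positions given). Its level was 0.215, 0.473, 0.426 and 0.347 TPM in control tumors 1 to 4, and 1.04, 0.491, 14.4 and 18.4 TPM in HMMR-Tg tumors 5 to 8. The genotypes did not overlap, but tumor 6 stood only just above the highest control, and the HMMR-Tg mean came mostly from tumors 7 and 8. The means were 0.365 ± 0.113 and 8.59 ± 9.18 TPM (SD, n = 4 each). The difference was 2.01 (SE 0.80, 95% interval 0.23 to 3.79), with an exact permutation p of 0.0286, the smallest that 70 arrangements of the tumors allow. It did not pass limma with Benjamini-Hochberg adjustment over 14835 genes (adjusted p = 0.9998). The difference was 3.01 with a pseudocount of 0.1 and 1.05 with a pseudocount of 5.

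Lif, at chromosome 11, 4157560 to 4172517, encodes leukemia inhibitory factor. It was the most abundant cytokine of the group, at 19.9, 19.5, 30.0 and 22.1 TPM across the control tumors and 25.2, 18.8, 32.6 and 41.9 TPM across the HMMR-Tg tumors. Tumors 8 and 7 were again the highest, although the genotypes overlapped and control tumor 3 came close to tumor 7. The difference was 0.32 (95% interval -0.31 to 0.95, exact permutation p = 0.286), and 0.14 without tumor 8.

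Osm lies next to Lif on chromosome 11, 4136423 to 4141029, and encodes oncostatin M, a cytokine made mainly by myeloid cells. Control tumors held 0.916, 3.25, 0.810 and 1.01 TPM, and HMMR-Tg tumors 0.795, 2.65, 10.8 and 6.05 TPM. Tumors 7 and 8 were the highest and tumor 5 the lowest of all 8, so the genotypes overlapped. The difference of 1.05 had a 95% interval of -0.22 to 2.32 and an exact permutation p of 0.257. Without tumor 7 it was 0.62.

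Il11, at chromosome 7, 4724669 to 4734460, encodes a cytokine that signals through gp130 with its own receptor chain. It was the scarcest member, at 0.218, 0.502, 0.244 and 0.181 TPM across the control tumors and 0.314, 0.512, 0.287 and 1.96 TPM across the HMMR-Tg tumors. Only tumor 8 exceeded 1 TPM. The difference was 0.37 (exact permutation p = 0.171), and 0.095 without tumor 8. Il10 encodes the anti-inflammatory cytokine interleukin-10 (chromosome 1, 132916422 to 132921551). It was at 0.219, 0.481, 0.536 and 0.141 TPM across the control tumors and at 0.741, 0.648, 1.88 and 1.74 TPM across the HMMR-Tg tumors. The genotypes did not overlap, with tumors 7 and 8 highest. The difference was 0.71 and the exact permutation p was 0.0286, which became 0.0571 to 0.0857 without any 1 control tumor and 0.2 without tumors 1, 3 and 6, a size at which no p under 0.05 is possible. Il10 and Il11 fell under the filter of a mean of 1 TPM that defined the tested genes. In a limma fit of all genes above 0 in any tumor, the adjusted p of Il10 was 0.965.

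The non-overlap of Il6 and of Il10 is read against all genes. Of 26969 genes above 0 in any tumor, 0.979% had every HMMR-Tg tumor above every control tumor, against 2 of the 10 members. The share was 1.04% among tested genes, as Il6 is, and 0.898% among genes under the filter, as Il10 is. Both genes were among those already known from these tumors when the members were chosen, so this count is a description.

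**Figure D1:**
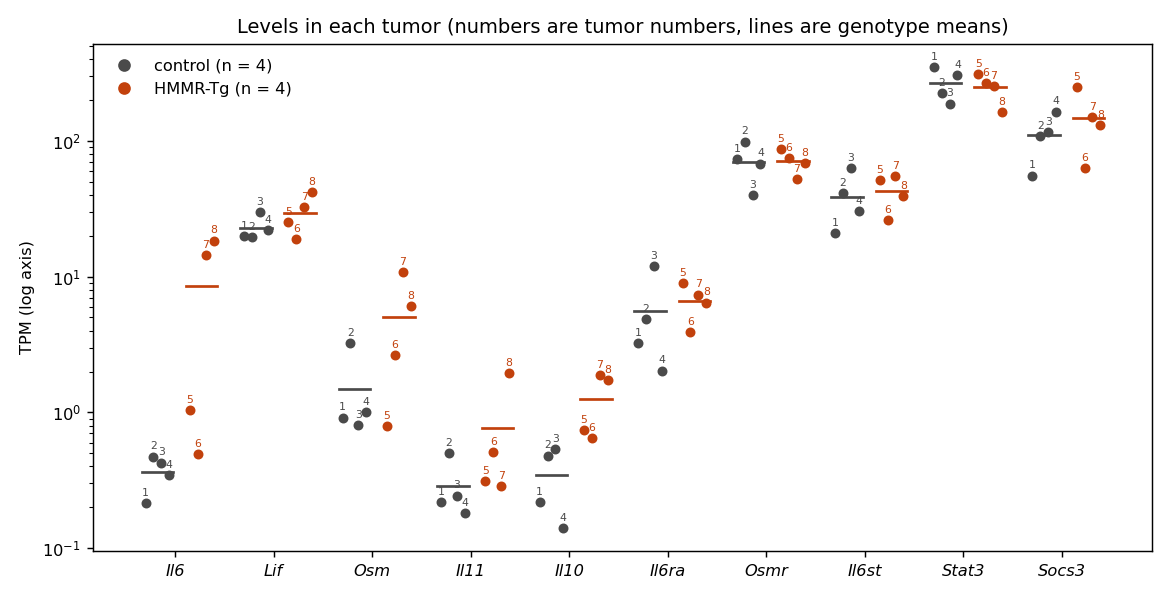
TPM of the 10 members on a log axis, with 1 point per tumor, its number beside it, and a line at the mean of each genotype (control in gray, HMMR-Tg in orange, n = 4 each). Il6 and Il10 are the genes whose HMMR-Tg points all lie above their control points, and tumors 7 and 8 are the highest for Il6, Lif, Osm and Il10.

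The 5 cytokines shared their high tumors. Each had its highest value in tumor 7 or 8, and 4 of the 5, all but Il11, had both of their highest values there. In comparison, the highest value fell in tumor 7 or 8 for 26.4% of genes above 0 in any tumor, and both highest values fell in those tumors for 3.92%. None of the other 5 members, the receptors, Stat3 and Socs3, had its highest value in tumor 7 or 8. The cytokine differences ranged from 0.32 to 2.01 (median 0.71), and those of the other 5 members from -0.11 to 0.41 (median 0.20). This pattern was chosen after the values were seen and was not tested.

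Added together, Il6, Lif, Osm and Il11 made up 21.3, 23.7, 31.5 and 23.7 TPM across the control tumors and 27.3, 22.4, 58.0 and 68.3 TPM across the HMMR-Tg tumors (exact permutation p = 0.229 on the log2 scale). The sum was more than any other tumor's in tumors 7 and 8 and within the control range in tumors 5 and 6. Lif supplied between 82.2% and 95.3% of the sum in tumors 1 to 6, but 56.1% and 61.3% in tumors 7 and 8. Il6 supplied 1.01% to 1.99% in control tumors, 3.82% and 2.19% in tumors 5 and 6, and 24.8% and 26.9% in tumors 7 and 8 (exact permutation p = 0.0286).

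**Figure D2:**
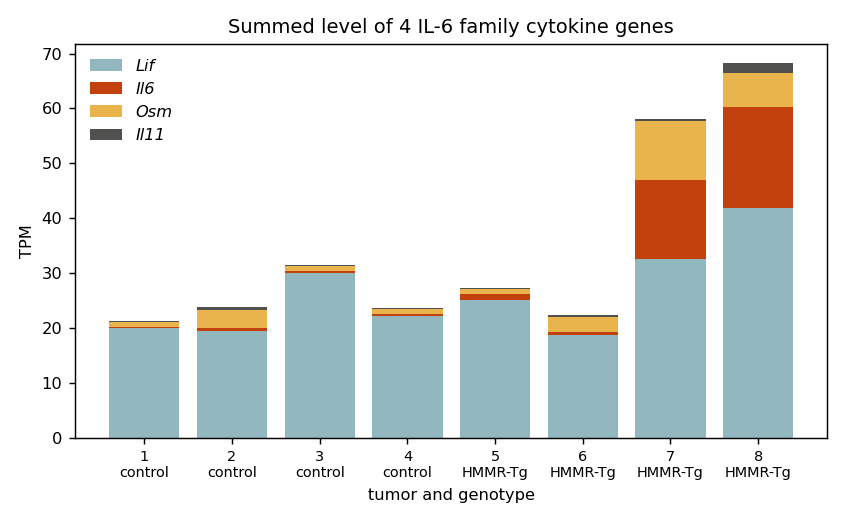
Stacked bars of the TPM of Lif, Il6, Osm and Il11 in each tumor, from 0. Lif fills most of each bar, and the bars of tumors 7 and 8 reach 58.0 and 68.3 TPM with Il6 and Osm adding to Lif.

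Cell type markers were set beside these values. Fibroblast markers summed to 836 TPM in tumor 7, within the 238 to 1076 TPM of tumors 1 to 6. In tumor 8 they summed to 2226 TPM, above all others, and all 8 of these markers were highest there. Macrophage markers summed to 1756 and 1015 TPM in tumors 7 and 8, within the 679 to 2110 TPM of the other tumors. Neutrophil markers summed to 36.8 TPM in tumor 7, the lowest of the 8 sums, and to 332 TPM in tumor 8, although 1 of the 6 tested markers of that list was highest in tumor 7. The summed endothelial markers did not overlap between genotypes (68.0 to 83.7 TPM in control, 94.4 to 182 TPM in HMMR-Tg). Of the single endothelial markers, 3 of 8 did not overlap, beside 1.04% of all tested genes, and 8 of 8 had the higher mean in HMMR-Tg. All 8 were highest in tumor 8. Of the 7 tested T and B cell markers, 6 were highest in tumor 7. The sum of that list was 30.2 TPM in tumor 7, and control tumor 2 came close with 30.0 TPM. The highest value fell in tumor 7 or 8 for 25.7% of all tested genes. No marker of any list was at 0 in all tumors. Whether these cells contributed to the cytokine levels was not tested. The endothelial, T and B cell, adipocyte and mammary epithelial scores were not set against the members. Across the 8 tumors, 40 relations between a member and the macrophage, neutrophil, fibroblast or skeletal muscle score were computed. None passed exact permutation with Benjamini-Hochberg adjustment (3 at an unadjusted p under 0.05, lowest adjusted p = 0.272). For Il11 and the fibroblast score, Pearson's r was 0.83 (exact permutation p = 0.0118, adjusted p = 0.272) and Spearman's rho 0.67 (exact permutation p = 0.0831, adjusted p = 0.865). Without tumors 4 and 8 its r was 0.38, so it rested on those tumors. For Osm and the fibroblast score, r was 0.72 (exact permutation p = 0.0417, adjusted p = 0.511). Its rho was 0.71 (exact permutation p = 0.0576, adjusted p = 0.865), and r was 0.67 without tumors 4 and 8. The third relation was that of Socs3 with the skeletal muscle score. There tumors 1 and 6 stand apart, so a pooled coefficient is not given, and r was -0.26 without them.

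Il6ra encodes the chain that binds interleukin-6 (chromosome 3, 89673246 to 89717084). Its level was 3.24, 4.88, 12.0 and 2.03 TPM across the control tumors and 8.94, 3.91, 7.37 and 6.43 TPM across the HMMR-Tg tumors. Control tumors 3 and 4 held the highest and the lowest value. The difference was 0.41 (95% interval -0.60 to 1.42, exact permutation p = 0.457), and 0.81 without tumor 3 against 0.11 without tumor 4. Osmr, the oncostatin M receptor chain at chromosome 15, 6763577 to 6824313, was the most abundant receptor gene of the group. It was at 73.2, 98.6, 40.0 and 67.9 TPM across the control tumors and 87.0, 74.6, 52.4 and 68.9 TPM across the HMMR-Tg tumors. The means, 69.9 ± 24.0 and 70.7 ± 14.3 TPM, were closer than the spread within either genotype (0.062, 95% interval -0.59 to 0.71, exact permutation p = 0.857).

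Il6st, at chromosome 13, 113265216 to 113297068, encodes gp130. It was at 20.8, 41.0, 63.1 and 30.3 TPM across the control tumors and 51.1, 26.2, 54.9 and 39.1 TPM across the HMMR-Tg tumors. High values occurred in both genotypes, in tumors 3, 7 and 5, and low values in tumors 1 and 6. The difference was 0.20 (95% interval -0.61 to 1.01, exact permutation p = 0.629), and it was -0.053 without tumor 1. Il6st was above Il6ra in every tumor, by 5.25 to 14.9 times. Across the 8 tumors, Il6ra and Il6st had an r of 0.86 (exact permutation p = 0.00779, adjusted p = 0.0935) and a rho of 0.88 (exact permutation p = 0.00724, adjusted p = 0.130), in a family of 36 pairs of members tested after the data were seen. The relation did not pass the adjustment, and r was 0.93 without tumors 3 and 4.

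In the same 36 pairs, Il6 and Il10 were the only pair under the adjusted threshold for Pearson's r. The pair missed it with a pseudocount of 5, and no pair passed for Spearman's rho (exact permutation, lowest adjusted p = 0.0804). Tumors 7 and 8 stand apart from the others in both genes, so that a pooled coefficient is not given. Within the remaining 6 tumors r was 0.78 (exact permutation p = 0.0389) and rho 0.89 (exact permutation p = 0.0333), with r = 0.93 after leaving out tumors 1 and 5. This relation was singled out after the data were seen, carries no adjustment and concerns values of about 1 TPM or less. Among these 6, HMMR-Tg tumors 5 and 6 held the highest values of both genes. The permutation did not hold genotype fixed, so genotype and this relation cannot be told apart. No genotype had enough tumors for a value of its own.

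Stat3 was the most abundant member, at chromosome 11, 100746412 to 100800854. It was at 349, 224, 188 and 305 TPM across the control tumors and 308, 266, 251 and 163 TPM across the HMMR-Tg tumors. Tumor 1 was highest and tumor 8, which held the most Il6, Lif and Il11, was lowest. The means were 266 ± 73.7 and 247 ± 60.9 TPM, a difference of -0.11 (95% interval -0.71 to 0.50, exact permutation p = 0.743), which was 0.081 without tumor 8. The annotated span of Stat3 overlaps that of Stat5a on the opposite strand, only from 100746412 to 100746483. The sources used here do not state strand-specific counting, and without strand the reads of the overlap cannot be told apart.

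Socs3, whose product blocks JAK activity at gp130, lies at chromosome 11, 117827393 to 117831361. Its level was 55.3, 108, 116 and 164 TPM across the control tumors and 249, 62.8, 149 and 130 TPM across the HMMR-Tg tumors. Tumor 5 was highest and tumors 1 and 6 lowest, and the genotypes overlapped. The difference was 0.35 (95% interval -0.63 to 1.34, exact permutation p = 0.457), and 0.051 without tumor 5. The same tumors 1 and 6 had the most skeletal muscle RNA, with markers summing to 379 and 453 TPM against 13.2 to 125 TPM in the others. Without tumors 1, 3 and 6, the tumors with the highest muscle scores, the difference of Socs3 was 0.35. Socs3 RNA amounted to 0.159 to 0.811 times that of Stat3.

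Socs3 was set against each of the other 9 members across tumors. None of the 9 relations passed exact permutation with Benjamini-Hochberg adjustment or reached an unadjusted p under 0.05. The closest was Il6st, with r = 0.68 (exact permutation p = 0.0631, adjusted p = 0.568) and rho = 0.50 (exact permutation p = 0.216, adjusted p = 0.831), and r = 0.67 without tumors 1 and 3. For Stat3, r was -0.10 (exact permutation p = 0.802, adjusted p = 0.986). With 2 tumors left out, r ranged over the 9 relations from -0.38 (Osm, without tumors 7 and 8) to 0.98 (Il6ra, without tumors 3 and 4). For Il6 it was 0.72 without tumors 7 and 8. These values from 6 tumors were not tested. Tumors 7 and 8, the highest in Il6, held less Socs3 than tumors 5 and 4 and more than tumors 1, 2, 3 and 6.

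Ordered by mean TPM, the members ran from Stat3 (257), Socs3 (129), Osmr (70.3), Il6st (40.8) and Lif (26.2) to Il6ra (6.10), Il6 (4.48), Osm (3.28), Il10 (0.798) and Il11 (0.527). The place of Il6 rests on tumors 7 and 8, since its mean was 0.365 TPM across the control tumors, under that of Osm, and 8.59 TPM across the HMMR-Tg tumors, over that of Il6ra (6.66). Stat3 stood above Socs3 in 8 of 8 tumors, Lif above Il6ra in 8 and Osm above Il10 in 8. Socs3 exceeded Osmr in 6 tumors, Osmr exceeded Il6st in 6 and Il6st exceeded Lif in 7. The ranges over tumors were apart only between Lif and Il6ra. Il6 was above Osm in only 3 tumors and Il10 above Il11 in 5, so these neighbors did not differ beyond their spread. Among the 14835 tested genes, Stat3 ranked at the 96.3rd and Socs3 at the 92.0th percentile of mean TPM, and Osm at the 16.7th.

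Read as a group, 0 of the 8 tested members passed limma with Benjamini-Hochberg adjustment, in a comparison where 0.0607% of all tested genes passed (9 higher in HMMR-Tg and 0 lower). At an unadjusted p under 0.05, 1 of the 8 members (Il6) was higher and 0 were lower, against 1.62% and 1.83% of all tested genes (3.46% in either direction). Il6 was no longer under this limit when tumor 1, 2, 4, 7 or 8 was left out singly, or with sample weights (limma array weights). The median difference of the tested members was 0.34, with the higher mean in HMMR-Tg tumors for 7 of 8, beside a median of -0.01 and 48.7% over all tested genes.

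**Figure D3:**
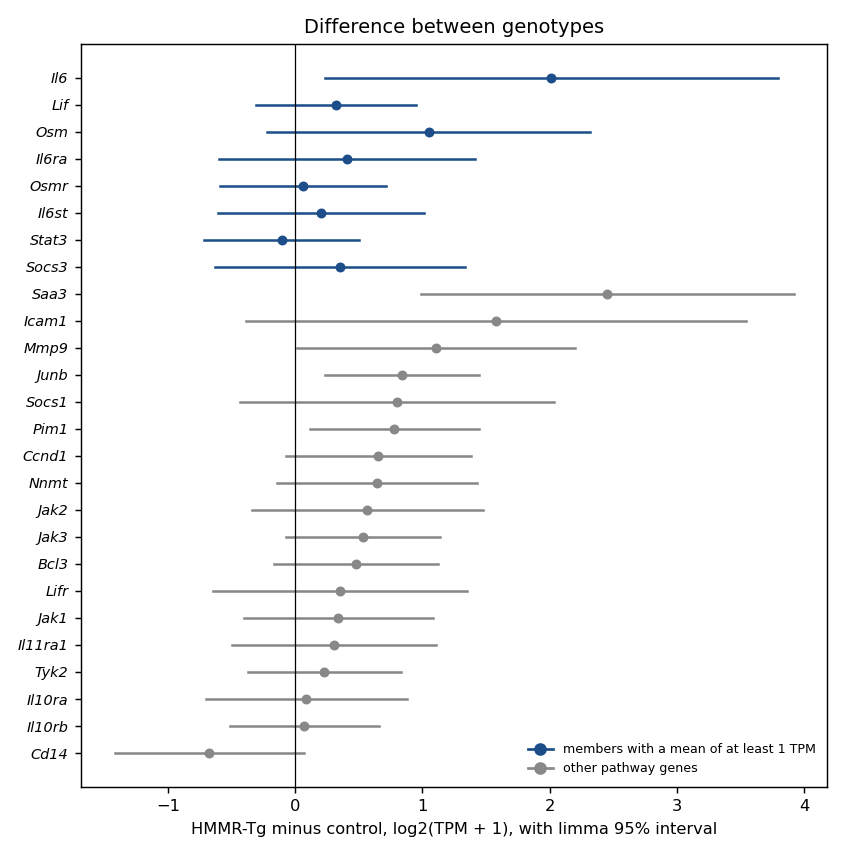
Difference of mean log2(TPM + 1), HMMR-Tg minus control (n = 4 each), with the 95% interval of limma as a bar, for the 8 tested members (blue) and 18 other pathway genes (gray). The intervals of Il6, Saa3, Junb, Pim1 and Mmp9 lie above 0 before adjustment for multiple testing, and no gene passed it.

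Other genes of the pathway were taken from lists of 80 genes, of which 70 were tested. None of the 70 passed limma with adjustment. At an unadjusted p under 0.05, 4 were higher and 0 lower with the transgene, beside 1.62% and 1.83% of all tested genes. The higher mean lay in HMMR-Tg tumors for 64.3%, beside 48.7% of all tested genes. The lists were written with earlier results of these data known, so these counts are descriptions. The median differences were 0.043 for 7 other ligands, 0.16 for 6 other receptors, 0.094 for 10 JAK kinases and other STATs, -0.020 for 15 inhibitors and 0.35 for 32 STAT3 targets. The lists describe roles known from other settings, and a gene on the target list also answers to other transcription factors.

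The partners of the members in receptor complexes overlapped between genotypes. Lifr, the receptor chain for LIF, was at 13.7 ± 6.11 TPM across the control tumors and 18.6 ± 11.2 TPM across the HMMR-Tg tumors (difference 0.35, exact permutation p = 0.429), with its highest value, 33.8 TPM, in tumor 7, and the difference was 0.024 without that tumor. Il11ra1, the interleukin-11 receptor chain, was also highest in tumor 7, at 113 TPM against 34.0 to 62.8 TPM elsewhere (difference 0.30, exact permutation p = 0.514). The interleukin-10 receptor chains Il10ra and Il10rb differed by 0.086 and 0.070, each less than the spread within a genotype. Among the kinases, Jak1, Jak2 and Tyk2 differed by 0.34, 0.57 and 0.23, with exact permutation p of 0.371, 0.286 and 0.314. Jak1 differed by 0.082 without tumor 1, and Jak2 and Tyk2 by 0.24 and 0.11 without tumor 7. Jak2 reached 69.7 TPM in tumor 7 against 14.7 to 40.9 TPM in the others. Jak3, a kinase of lymphoid and myeloid cells, was at 19.8 ± 5.14 and 29.3 ± 8.59 TPM (0.53, exact permutation p = 0.0857). Socs1, an inhibitor related to Socs3, reached 13.9 TPM in tumor 7 and at most 4.19 TPM elsewhere. Its difference was 0.80 (exact permutation p = 0.200), and 0.29 without tumor 7.

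The STAT3 targets held the 4 pathway genes under an unadjusted p of 0.05 in the limma fit. Saa3, an acute-phase serum amyloid, was at 6.31, 5.61, 25.1 and 2.19 TPM across the control tumors and 17.8, 41.5, 45.2 and 96.4 TPM across the HMMR-Tg tumors. Only control tumor 3 overlapped with the HMMR-Tg tumors, above tumor 5. The difference was 2.45 (95% interval 0.99 to 3.92, exact permutation p = 0.0571). The AP-1 subunit Junb was at 192, 286, 222 and 128 TPM across the control tumors and 285, 323, 432 and 410 TPM across the HMMR-Tg tumors, where control tumor 2 just exceeded tumor 5 (0.84, exact permutation p = 0.0571). Pim1, a survival kinase, was at 21.8 ± 4.69 and 39.5 ± 14.2 TPM (0.78, exact permutation p = 0.0857). For the matrix protease Mmp9 the means were 5.44 ± 4.08 and 11.7 ± 5.16 TPM (1.11, exact permutation p = 0.114). Junb and Pim1 had both of their highest values in tumors 7 and 8, as 4 of the 5 cytokines did, and so did Saa3. Mmp9 did not. Over all tested genes, 4.23% had both highest values in those tumors. These targets were named for a small unadjusted p and had the higher mean in HMMR-Tg tumors. High values in tumors 7 and 8 are therefore partly given by that choice and are a description.

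Of the remaining targets named by their rank in the fit, the cyclin Ccnd1 differed by 0.65, the methyltransferase Nnmt by 0.64, the adhesion molecule Icam1 by 1.58 and the NF-κB regulator Bcl3 by 0.48 (exact permutation p from 0.114 to 0.200). Icam1 held 345 TPM in tumor 7 and 7.48 to 44.5 TPM in the others, and its difference was 0.64 without tumor 7. Cd14, a myeloid co-receptor for bacterial lipopolysaccharide, had the lower mean in HMMR-Tg tumors (278 ± 87.4 against 178 ± 80.5 TPM, -0.67, exact permutation p = 0.114). In all, 16 of the 32 targets had their highest value in tumor 7 or 8, against 25.7% of all tested genes.

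Other genes of the cytokine and receptor lists had other high tumors. Clcf1, which encodes a gp130 ligand of the ciliary neurotrophic factor branch, was at 31.2 TPM in tumor 3 and 31.9 TPM in tumor 5, with 2.75 to 8.62 TPM in the others. The receptor gene Cntfr, at 10.4 and 16.9 TPM, and the interleukin-10 family cytokine Il24, at 68.3 and 76.4 TPM, were also highest in these tumors. Il24 reached at most 2.46 TPM elsewhere. Cntfr stood less apart, at 0.706 to 8.30 TPM in the others. Tumor 3 is a control tumor and tumor 5 an HMMR-Tg tumor. Il6ra had both of its highest values in the same tumors. Clcf1, Cntfr and Il24 were singled out after their values were seen, and 11.9% of tested genes had both highest values in tumors 3 and 5.

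**Figure D4:**
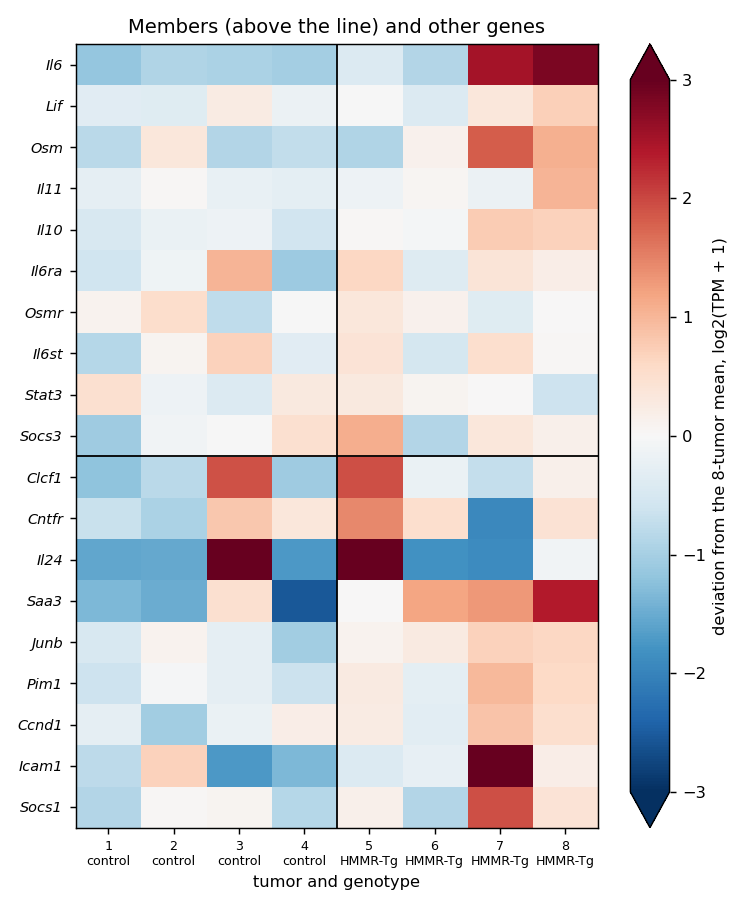
Deviation of log2(TPM + 1) from the mean of the 8 tumors, with blue below and red above and colors saturating at 3, for the 10 members above the line and 9 other genes below it. Columns are tumors 1 to 4 (control) and 5 to 8 (HMMR-Tg). The rows of Il6, Lif, Osm and Il10 are reddest in tumors 7 and 8, whereas Clcf1, Cntfr and Il24 are reddest in tumors 3 and 5. Cntfr is also above its mean in tumors 4, 6 and 8.

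The genes most like 4 of the members were taken by Pearson's r over the 8 tumors, among 12827 named protein-coding genes. These coefficients are descriptions, since the tumors are few, share 1 scaling and the genes were picked for high values. For Il6 they were Csrnp1 (0.98), Tssc4 (0.98) and Tollip (0.98), and for Il10 they were Bub3 (0.99), Bag3 (0.97) and Art3 (0.96). Tumors 7 and 8 stand apart in Il6 and in Il10, and these coefficients were not computed without them. Socs3 was most like Hmgb3 (0.98), Nup98 (0.98) and Coq10b (0.96), and Stat3 most like Mto1 (0.97), Tcp11l2 (0.96) and Cand2 (0.95). Csrnp1, an immediate-early nuclear protein, was at 54.8 and 59.8 TPM in tumors 7 and 8 and at 9.74 to 15.1 TPM in the others. Bub3, a mitotic checkpoint protein, was at 123 and 114 TPM in those tumors and at 43.7 to 73.3 TPM in the others.

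Of the 6 genes most like Il6 or Il10, 4 lie on distal chromosome 7, namely Bag3 (start 135667097), Bub3 (138703905), Tollip (149060718) and Tssc4 (150255154). After this was seen, chromosome 7 was read in windows of 10 Mb. Between 140 and 150 Mb, the 87 tested genes had a median deviation from the 8-tumor mean of 0.54 in tumor 7 and 0.45 in tumor 8, and between -0.42 and -0.01 in the others. In this window 52.9% of genes had both highest values in tumors 7 and 8, against 4.23% of all tested genes. From 130 to 140 Mb, where Bag3 and Bub3 lie, the medians were 0.65 in tumor 7 and -0.11 in tumor 8. There 27.9% of genes had both highest values in tumors 7 and 8. Ccnd1, at 152115836 to 152125774, lies further along the same arm, between 150 and 160 Mb. The 25 tested genes there had medians of 0.29 in tumor 7 and 0.42 in tumor 8. The medians were also raised in tumors 3 (0.28) and 5 (0.24). In that window 32% of genes had both highest values in tumors 7 and 8. Il6 and Il10 lie on other chromosomes. Il11 is on chromosome 7 but near its other end.

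Each member was then set beside the tested genes within 5 Mb of it, as deviations from the 8-tumor mean. Stat3 went the way of its 186 neighbors in 6 of 8 tumors. In tumor 8 Stat3 deviated by -0.61 and the neighbors by a median of -0.41, and in tumor 1 by 0.48 and 0.36. Socs3 had the sign of its 168 neighbors in 7 of 8 tumors and Il6st that of its 27 neighbors in 7 of 8, although the deviation of Socs3 in tumor 5 (1.09) exceeded that of its neighbors (0.14). The sign of a deviation close to 0 carries little weight in such counts. The 78 neighbors of Lif lay close to their mean in 6 tumors, but deviated by 0.61 in tumor 4, where Lif deviated by -0.19. In tumor 8 the neighbors of Lif deviated by -0.65, whereas Lif itself deviated by 0.71 and Osm, in the same segment, by 1.07. The neighbors of Il6 stayed between -0.31 and 0.15 in all tumors, while Il6 deviated by 2.49 in tumor 7 and 2.83 in tumor 8.

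**Figure D5:**
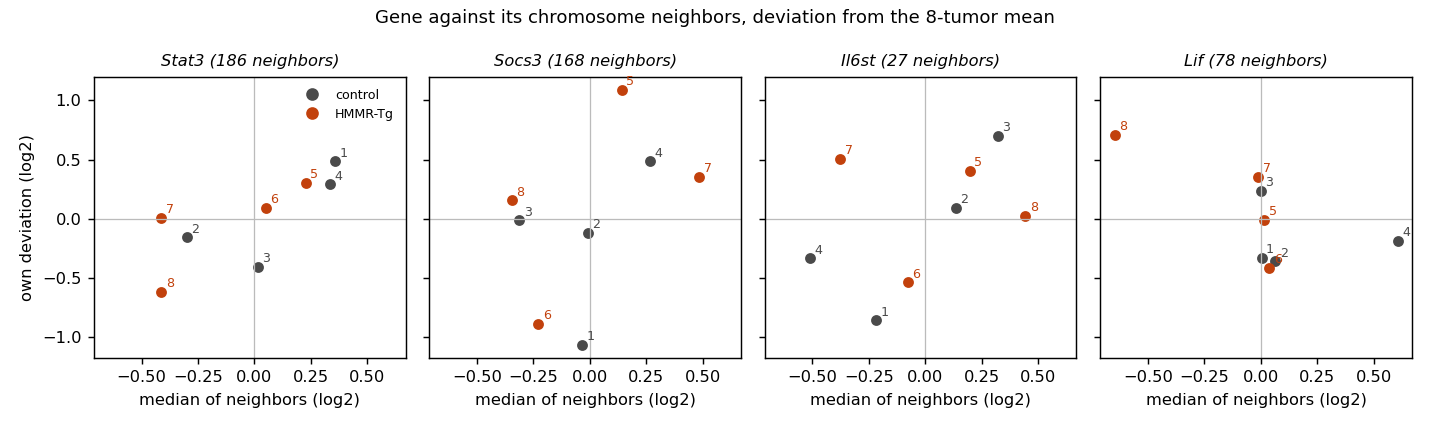
Deviation of a gene from its 8-tumor mean in log2(TPM + 1), vertical, against the median deviation of the tested genes within 5 Mb, horizontal, with 1 point per tumor (control in gray, HMMR-Tg in orange). Stat3 runs along its neighbors in most tumors, and Lif in tumor 8 is above its mean while its neighbors are below theirs.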

How the data were processed

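Bulk RNA was measured in 8 frozen mouse mammary tumors, 4 of each genotype, grouped by the genotype in their titles. The deposited values are gene-level TPM computed by the authors. The sources differ on the route. The methods of the study describe Kallisto and tximport, whereas STAR 2.4.0f1, bedtools and SAMtools 0.1.18 are listed in the submitters' processing notes. The build was mm9 in both. The authors' count test with DESeq2 was not run, because TPM are not counts.

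Columns summed to 994000.9 to 994984.0 and were not rescaled. Symbols and positions came from GENCODE M1 (mm9), with newer names and promoters from RefSeq (GRCm38.p6), and 25388 of 35539 IDs had a symbol. The 14835 genes whose mean reached 1 TPM, 8 of them members, were tested with limma 3.58.1 in R 4.3.3 on log2(TPM + 1), with a mean-variance trend, two-sided, and Benjamini-Hochberg adjustment at 0.05. Single genes and correlations used exact permutation tests, two-sided, in Python 3.11.15 with scipy 1.17.1 and numpy 2.4.6. When tested on simulated data for these 14835 genes, the fit recovered 12% of 50 genes altered by a log2 change of 1, 40% at 1.5, 68% at 2 and 84% at 3. The altered genes had a mean log2(TPM + 1) above 1, and the noise was normal with equal spread in both genotypes. These rates do not describe genes of unequal spread such as Il6, with a log2 SD of 0.12 in control and 1.92 in HMMR-Tg tumors. Other settings were a pseudocount of 0.1 or 5, a minimum mean of 5 TPM or none, quantile or median-of-ratios scaling, TPM rescaled after removal of milk protein, hemoglobin, immunoglobulin and mitochondrially encoded genes, no trend, array weights and each tumor left out. A fit without tumors 1, 3 and 6 was added after the data were seen.

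Members and lists were chosen with earlier results of these data known. A gene that the naming rule takes is not reported here. Besides the members, the text names Lifr, Il11ra1, Il10ra, Il10rb, Jak1, Jak2, Tyk2 and Socs1, the 10 other pathway genes of smallest unadjusted p, and the 3 genes most like each of Il6, Il10, Socs3 and Stat3. T and B cell markers (2 of 7 tested with a higher mean in HMMR-Tg) and adipocyte markers (5 of 5) were also read, besides macrophage (8 of 10), neutrophil (6 of 6), fibroblast (7 of 8), skeletal muscle (3 of 10) and mammary epithelial markers (4 of 8).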

Additional observations from a re-analysis of the deposited data

Results flagged for a closer look

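In 5 of the 56 groups of 4 tumors checked, over the members and the named pathway genes, 1 tumor stood far from the rest of its genotype by Dixon's criterion, which chance meets in about 1 of 20 groups. Among the members, Osm was at 3.248 TPM in control tumor 2, where the nearest control tumor held 1.009 TPM. Il11 was at 1.958 TPM in HMMR-Tg tumor 8, against 0.5116 TPM in the nearest tumor. Among the other genes, Cd14 was at 297.5 TPM in HMMR-Tg tumor 8 (nearest 149.1 TPM), Jak3 at 27.43 TPM in control tumor 3 (nearest 18.1 TPM) and Icam1 at 344.6 TPM in HMMR-Tg tumor 7 (nearest 31 TPM). What set these tumors apart was not tested.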

How the results depend on the processing

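Under every alternative, 0 members and 0 other pathway genes passed limma with adjustment. The number of genes called in all moved from 9 to 3 without tumors 1, 3 and 6 and lay between 6 and 10 otherwise. Differences that changed sign had means within the spread of the tumors. With 1 tumor left out in turn, Osmr ranged from -0.18 to 0.25, Il6st from -0.053 to 0.47, Stat3 from -0.26 to 0.081, Il11ra1 from -0.017 to 0.51, Il10ra from -0.16 to 0.37 and Il10rb from -0.077 to 0.25. Osmr was -0.26 without tumors 1, 3 and 6. The cause was not tested. The difference of Il6 ranged from 1.41 to 2.64 with 1 tumor left out and was 2.59 without tumors 1, 3 and 6. That of Il10 kept its sign, but its exact permutation p was 0.0571 to 0.0857 without any 1 control tumor and 0.2 without tumors 1, 3 and 6. The pair of Il6 and Il10 missed the adjusted threshold with a pseudocount of 5. Of the differences under alternatives, 469 kept their direction and their side of the threshold, 12 changed sign and 5 kept only their direction. Rescaled TPM moved the median of all genes to -0.06. Il6, Osm, Socs1 and Nnmt fell out at a minimum mean of 5 TPM. No paired analysis was possible because tumor numbers 1 to 8 are not shared between genotypes. TPM holds no depth, so values near or under 1 TPM, as for Il10, Il11 and Il6 in control tumors, carry a counting error that could not be given.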
